A study of Homo sapiens with 2 samples.

Results

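Proteasome genes were examined on 2 single-channel oligonucleotide arrays of HCT116 cells, a widely used line from a human colorectal carcinoma. The members were the genes whose symbol starts with PSMA, PSMB, PSMC, PSMD, PSME, PSMF or PSMG and a number, each read by its brightest probe set, with antisense transcripts and pseudogenes left out. The rule found 43 genes of the 19775 that carry a single symbol on the array. One array held total RNA of cells given a control siRNA, and the other that of cells given siRNAs against JMJD1A (now KDM3A) and JMJD1B (now KDM3B), which encode demethylases of histone H3. Both RNAs were taken 2 days after transfection of the same unmodified line, per the labels. With 1 array per group no replicate error, test or p-value can be given, and every value below describes these 2 RNA samples and their arrays. The number of arrays limits the precision.

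The proteasome degrades proteins that carry ubiquitin chains. Its core particle is a barrel of 4 stacked rings, the outer rings of alpha subunits (PSMA genes) gating the entry and the inner rings of beta subunits (PSMB genes) holding the proteolytic sites. The regulatory particle caps the barrel. Its base carries a ring of ATPases (PSMC genes) that unfold substrates, and its lid (several PSMD genes) removes the ubiquitin. Other caps, an inhibitor and dedicated assembly chaperones complete the family. Core and regulatory subunits are assembled in fixed proportions and are known to be transcribed in concert, with the transcription factor NFE2L1 raising both when proteasome activity falls.

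Signals are the deposited MAS5 intensities, in arbitrary units, and each log2 ratio sets the JMJD1A/JMJD1B siRNA array over the control one, on the deposited scale. A gene counted as measured if its mean log2 signal over both arrays reached the median of all probe sets, equal to a signal of 50.4, and 12561 genes did so. Of the 43 members 41 were measured. PSMA8, a testis form of an alpha subunit, read 5.52 on the control array and 49.6 on the siRNA array, and PSMB8, an inducible catalytic subunit, read 3.73 and 5.18, so neither was measured. PSMA6, PSMB11, PSMC5, PSMD7, PSMD13 and PSME2 had no probe set naming them alone and were not analysed here. KDM3B read 3031 and 496, which is 16.4% of control. KDM3A read 3884 and 3323, or 85.6% of control, a log2 ratio of -0.22 by its only measured probe set. That is within the SD of 0.53 among probe sets of one gene, given below, so a difference in the KDM3A transcript is not shown. All 7 markers of colon epithelium were measured, and their summed level was 78824 and 121622. KRT19 and CDH1 were at least 2-fold higher on the siRNA array, KRT19 at 16309 and 38953 (2.39-fold) and CDH1 at 4670 and 10081 (2.16-fold), while VIL1 and CDX2 lay at 108 or less on both arrays. Of the markers of other cells, 1 of 3 for leukocytes, 1 of 2 for endothelium and 2 of 3 for fibroblasts were measured, and PTPRC, CD14 and VWF read 29.6 or less on both arrays. CD3E read 48.3 and 65.5, and PECAM1 116 and 158. COL1A1 read 324 and 631, and DCN 39.1 and 67.3. COL1A2, which was not measured, went the other way at 42.8 and 7.36. The summed level of these 3 fibroblast markers, most of it COL1A1, was 405 and 706. The part of the epithelial and fibroblast markers in the results was not tested. Since the RNA came from a bulk culture, a change in the number of cells of one kind and a change in RNA per cell cannot be told apart.

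On the deposited scale the core particle was level or slightly higher on the siRNA array. Of its 13 measured genes 11 had a log2 ratio above 0, where 52.1% of all measured genes did, and the median was 0.18 against 0.04 for all measured genes. That background is dimmer than the core genes. Among the 628 genes with a mean signal of at least 9225, where all 13 lay, the median was 0.42 and the lower quartile 0.12. Against that median 12 of the 13 core genes were lower. No core gene was at least 2-fold higher, where 8.91% of all measured genes were, and none at least 2-fold lower, where 8.53% were. The ratios spanned -0.13 to 0.62. The quartiles were 0.12 and 0.70 for the 628 genes as bright, and -0.45 and 0.51 for all measured genes.

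In the alpha ring, whose N-terminal tails form the gate of the barrel, PSMA7 stood highest. It read 15554 on the control array and 19234 on the siRNA array, a log2 ratio of 0.31. PSMA3 stood lowest, at 13272 and 12163, a log2 ratio of -0.13. The other 4 measured alpha genes, PSMA1, PSMA2, PSMA4 and PSMA5, lay between 0.14 and 0.29, so that 5 of 6 were above 0.

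In the beta ring the catalytic subunits were close to level. PSMB5, the subunit with chymotrypsin-like activity, read 10610 and 10633, a log2 ratio of 0.00. PSMB6, the caspase-like subunit, read 11029 and 11468, a log2 ratio of 0.06, and PSMB7, the trypsin-like subunit, 13895 and 17293, a log2 ratio of 0.32. These differences are smaller than the SD of 0.53 that the log2 ratio of a single probe set showed among probe sets of one gene. That SD is taken over probe sets that may read different transcripts of a gene, and the 18 hybridization controls, RNAs added at the hybridization step, spanned 0.40 to 0.71. The structural subunit PSMB3 stood highest in the core. It read 16719 and 25774, which is 1.54-fold higher and a log2 ratio of 0.62, just beyond that SD. The genes with a mean signal of at least 9225 had a median of 0.42 and an upper quartile of 0.70, so PSMB3 lay within their quartiles. With the trend with signal removed by loess, as given below, it was at 0.20, within that SD. PSMB2 stood lowest of the ring, at 13573 and 12781, a log2 ratio of -0.09.

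The inducible subunit PSMB10 takes the place and trypsin-like activity of the constitutive subunit PSMB7 in the immunoproteasome. PSMB10 read 1686 on the control array and 926 on the siRNA array, 54.9% of control and a log2 ratio of -0.87. PSMB7 was above 0 on the deposited scale, within the probe-set SD. With the trend with signal removed by loess, PSMB7 was at -0.03 and PSMB10 at -0.76.

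**Figure D1:**
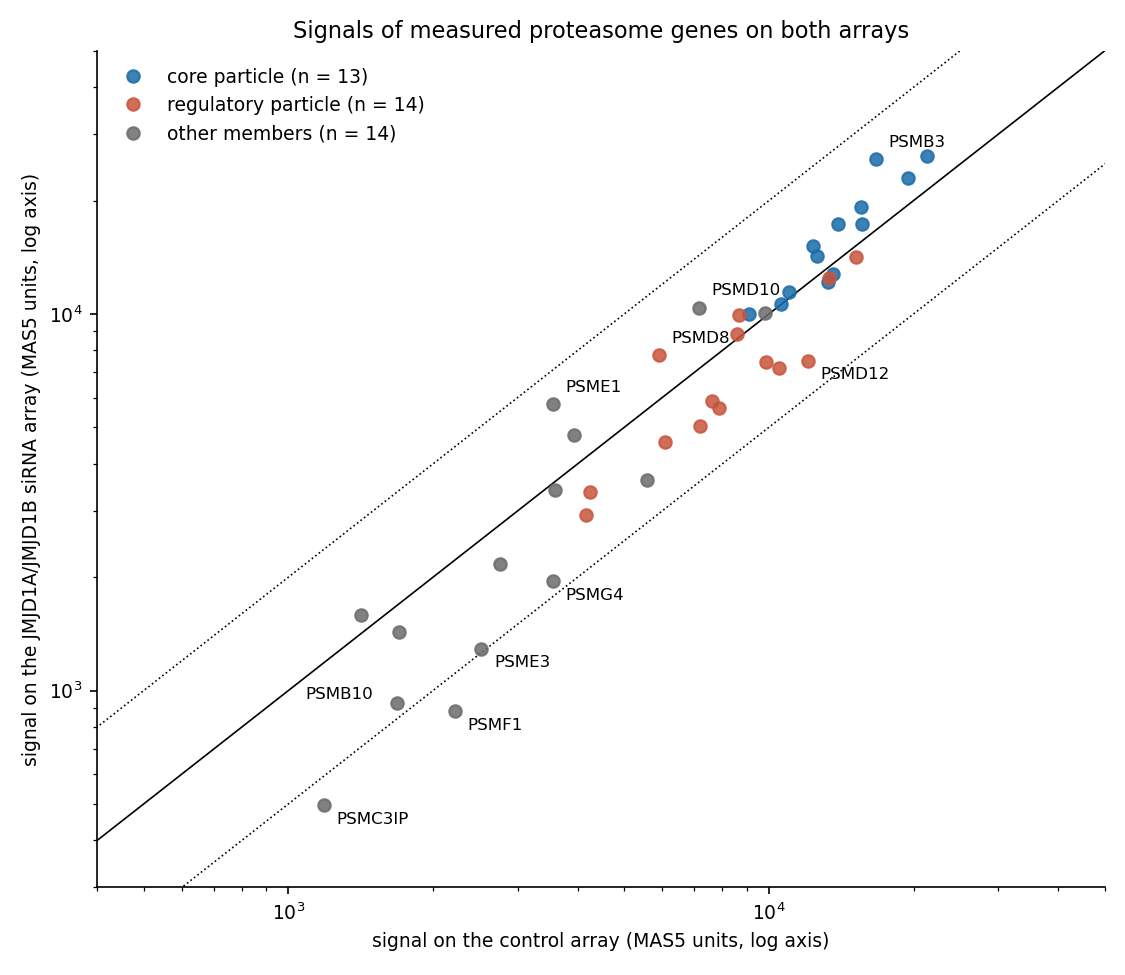
Signal of each of the 41 measured proteasome genes on the control array (horizontal, MAS5 units, log axis) and on the JMJD1A/JMJD1B siRNA array (vertical, same scale), 1 point per gene by its brightest probe set, with the solid line at equal signal and the dotted lines at 2-fold. The core genes lie along or just above the line, most regulatory genes lie below it, and PSMF1 and PSMC3IP fall outside 2-fold.

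The regulatory particle was mostly lower on the siRNA array. Of its 14 measured genes 11 had a log2 ratio below 0, where 47.9% of all measured genes did, and the median was -0.39, or 76.4% of control. None was changed 2-fold. At 1.5-fold, a threshold that 19.5% of all measured genes passed in the lower direction, only PSMD12 was lower, so the lower median rested on small differences, and 12 of the 14 lay within the probe-set SD of 0.53.

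Among the ATPases, 4 of 5 measured genes were below 0. PSMC3 stood lowest, reading 6071 on the control array and 4562 on the siRNA array, a log2 ratio of -0.41. PSMC1 and PSMC4 were close to it at -0.40 and -0.34, and PSMC2 was at -0.10. PSMC6 stood highest, at 8599 and 8828, a log2 ratio of 0.04. Of the non-ATPase subunits of the base, the large scaffold subunit PSMD1 read 7861 and 5641, a log2 ratio of -0.48, and its fellow scaffold PSMD2 was at -0.37. The ubiquitin receptor PSMD4 differed from both, at 8652 and 9938, a log2 ratio of 0.20, with its 3 measured probe sets between 0.14 and 0.26.

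The lid held the lowest values of the particle. PSMD12, a lid scaffold subunit, read 12052 on the control array and 7520 on the siRNA array, which is 62.4% of control and a log2 ratio of -0.68. PSMD6, PSMD11 and PSMD3 followed at -0.55, -0.52 and -0.51. These 4 and PSMD8 belong to one horseshoe of related subunits, and PSMD8 went the other way, at 5900 and 7778, a log2 ratio of 0.40, the only lid gene above 0. The enzyme of the lid, the deubiquitinase PSMD14, hardly differed, at 13316 and 12493, a log2 ratio of -0.09. The median of the 6 measured lid genes was -0.51, against -0.34 for the ATPases.

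**Figure D2:**
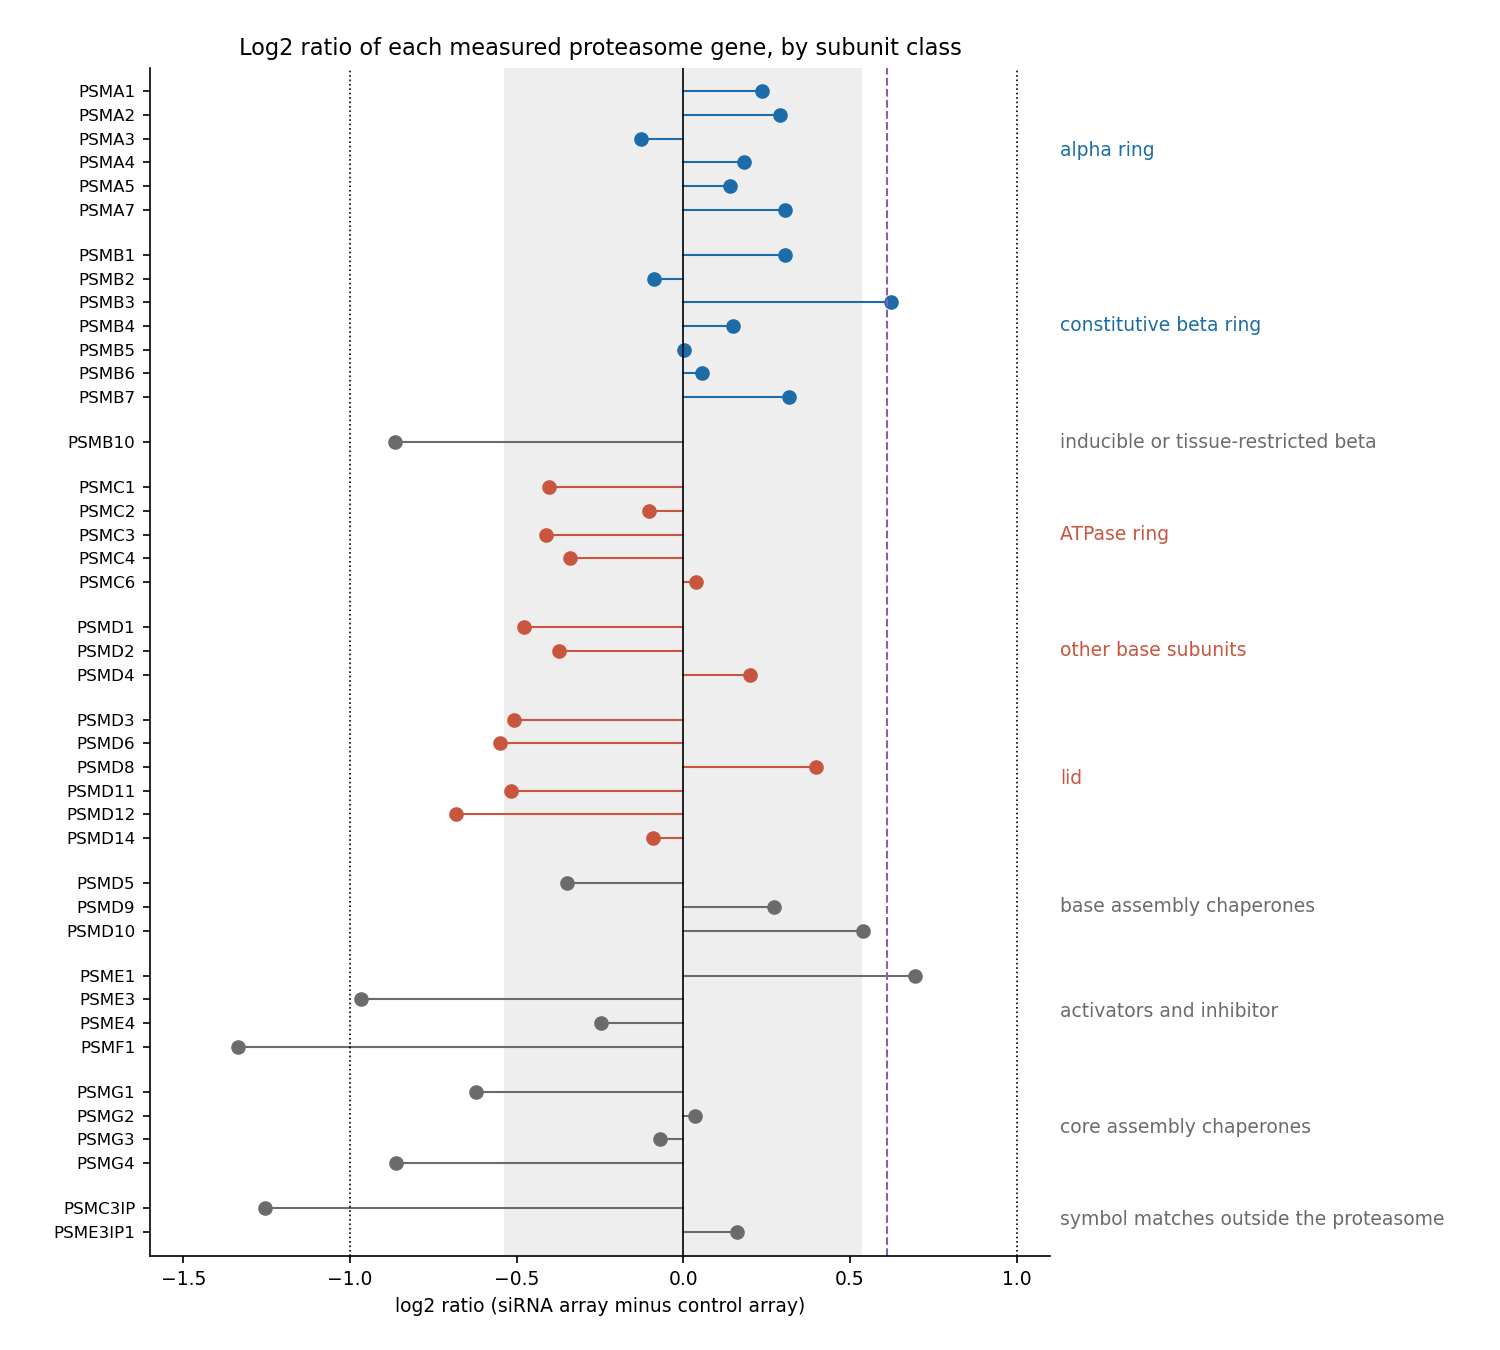
Log2 ratio (siRNA array minus control array, deposited scale) of each measured proteasome gene, grouped by subunit class, blue for the core particle, red for the regulatory particle and grey for other members. The grey band marks the probe-set SD of 0.53 on either side of 0, the dotted lines 2-fold, and the dashed line the median of the hybridization controls at 0.61, the point that would be 0 if the arrays were set level on those controls; 11 of 13 core genes lie right of 0 and 11 of 14 regulatory genes left of it.

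Set against each other, the median of the core particle was higher than that of the regulatory particle by 0.57 on the log2 scale, or 1.49-fold. Their ranges overlapped, since PSMD8, PSMD4 and PSMC6 lay among the core genes and PSMC2 and PSMD14 close to PSMA3 and PSMB2. The difference could not be tested with 1 array per group, and the genes of one complex are not replicates of a condition. With all measured probe sets of each gene averaged it was 0.48, without probe sets of the _x_at and _s_at types 0.51 (10 core and 9 regulatory genes), and with the lid and base partners SEM1 and ADRM1 counted as regulatory 0.57.

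The ratio moved with signal, and proteasome genes are bright. Signals do not rank genes against each other, but they place a gene on the trend that all genes share. In the brightest of 20 bins of equal count (628 genes with a mean signal of at least 9225), the median log2 ratio was 0.42 with quartiles at 0.12 and 0.70. All 13 core genes lay there and 12 of them were below its median. Of the regulatory genes 4 lay there, PSMC2, PSMD4, PSMD12 and PSMD14, with a median of -0.10 against 0.18 for the core genes. Over all bins 13 of 14 regulatory genes were below the median of their bin and 9 below its lower quartile. After the trend was removed by loess the core median was -0.15 and the regulatory median -0.52, a difference of 0.37. Then 12 of 13 core and 13 of 14 regulatory genes were below 0, where 49.9% of all measured genes were below 0 and 50.1% above it. The sign of the core median therefore depended on the scaling, and the regulatory median stayed below 0 under each of the scalings tried. Such counts after loess were not particular to the core particle. In complexes compared below, 7 of 7 genes of the CCT chaperonin, 8 of 12 of eIF3 and 5 of 9 of the COP9 signalosome were below 0.

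**Figure D3:**
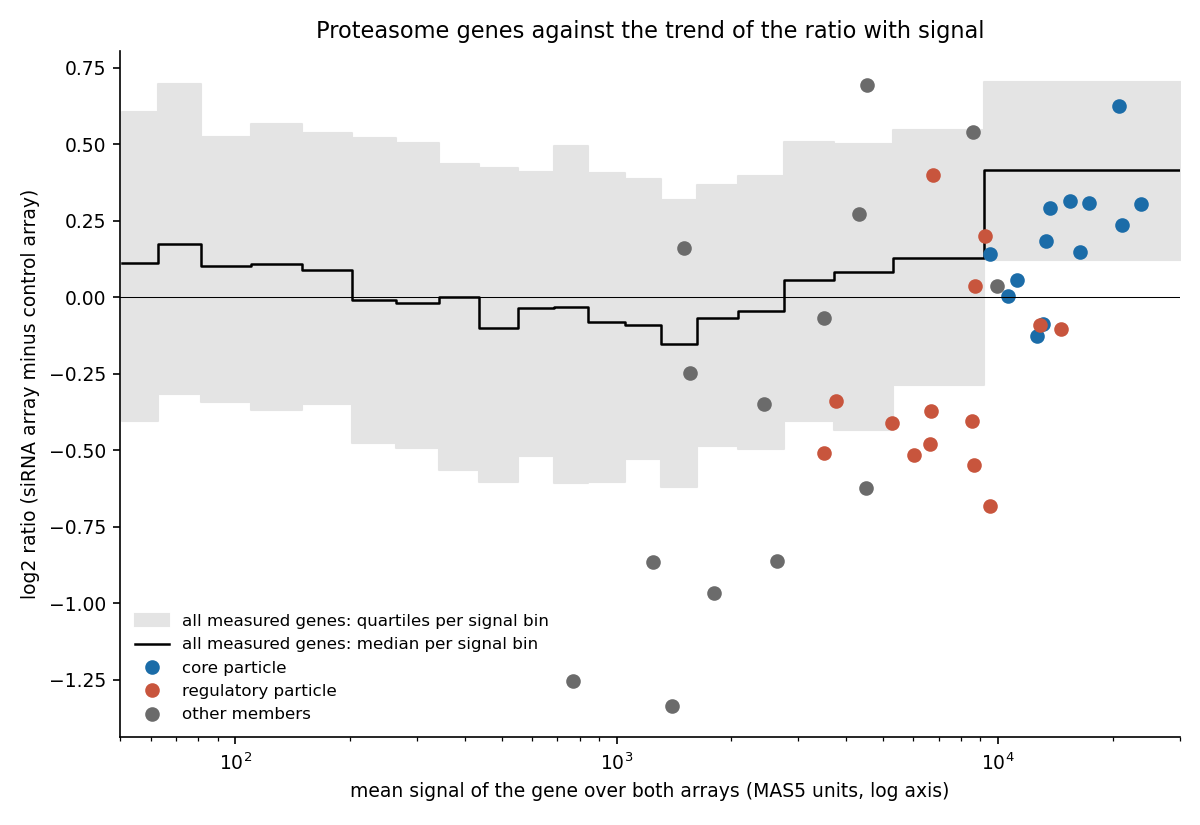
Log2 ratio of the measured proteasome genes (vertical) against their mean signal over both arrays (horizontal, MAS5 units, log axis), over the median (line) and quartiles (grey) of all 12561 measured genes in 20 signal bins of equal count. In the brightest bin, where all genes have a median of 0.42, 12 of 13 core genes (blue) lie below the line, and 9 of 14 regulatory genes (red) lie below the grey band of their bin.

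The 18 hybridization controls were all higher on the siRNA array, with a median log2 ratio of 0.61. With the arrays level on these controls every ratio would drop by 0.61. The core median would be -0.43, the regulatory median -0.999, and 13 of 41 members (31.7%) in place of 2 would be at least 2-fold lower, where 27.7% of all measured genes would be. On that scale only PSMB3 and PSME1 would stay above 0, at 0.01 and 0.08. The difference between the particles does not change with such a shift.

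**Figure D4:**
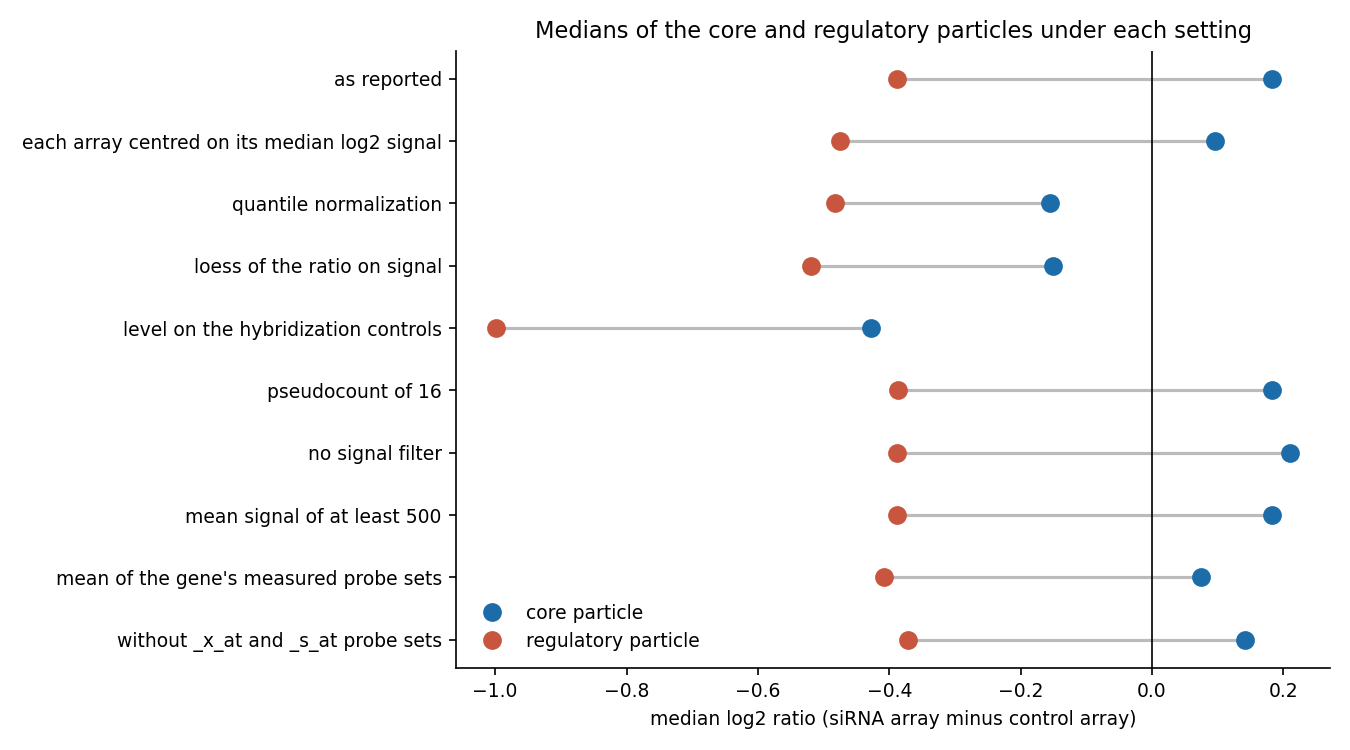
Median log2 ratio (siRNA array minus control array) of the core particle (blue) and of the regulatory particle (red) on the deposited scale and under 9 other settings. The regulatory median lies left of the core median in every setting drawn, and the core median passes below 0 after quantile normalization (-0.16), after loess (-0.15) and with the hybridization controls set level (-0.43). Centring on the median and levelling on those controls shift both medians alike and cannot change the gap.

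Promoters were searched because the members of each particle leaned one way. RefSeq windows (GRCh38.p14) of 300 bases, from 250 before to 50 after the start site, were found for 37 members. The core of the antioxidant response element, which NFE2L1 and NFE2L2 bind with small MAF proteins, was taken as TGACNNNGC and the box bound by NF-Y as CCAAT, both on either strand, and no match of one overlapped the other. The first was found in 12 of 37 members (32.4%) against 16.1% of the 27305 genes in the table, and the second in 18 of 37 (48.6%) against 39.7%. In the core particle the response element core was found in 2 of 9 genes and in the regulatory particle in 4 of 13. CCAAT was found in 7 of 9 core genes (77.8%) and in 6 of 13 regulatory genes (46.2%). A match is a run of letters and says nothing of binding. Shown are the response element core matches of the core and regulatory genes, except the second of PSMD3. Each is given with up to 10 bases on either side, in capitals where it matches, 5′ to 3′ on the gene's strand:
PSMA4, chr15:78540650-78540678 (+): gtgggcacgaTGACTCTGCaccgcctcct
PSMB3, chr17:38752627-38752655 (+): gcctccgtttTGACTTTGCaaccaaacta
PSMC4, chr19:39971182-39971210 (+): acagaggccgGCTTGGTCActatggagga
PSMD1, chr2:231056896-231056916 (+): aggaggcgacTGACTGAGCag
PSMD3, chr17:39980760-39980788 (+): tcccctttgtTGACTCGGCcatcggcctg
PSMD12, chr17:67366724-67366752 (-): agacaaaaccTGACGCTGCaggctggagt

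Genes with such a match stood on both sides of 0. PSMB3 and PSMA4 had log2 ratios of 0.62 and 0.18, and PSMD12, PSMD3, PSMD1 and PSMC4 had ratios of -0.68, -0.51, -0.48 and -0.34. PSMB3, the highest gene of the core, and PSMD12, the lowest of the regulatory particle, both carried the element, and the 250 bases before their start sites are shown for comparison, with matches to either motif in capitals. The PSMB3 stretch (chr17:38752491-38752740, plus strand) holds the response element core once and CCAAT at both of the other marked places, and the PSMD12 stretch (chr17:67366578-67366827, minus strand) holds the response element core alone:
PSMB3: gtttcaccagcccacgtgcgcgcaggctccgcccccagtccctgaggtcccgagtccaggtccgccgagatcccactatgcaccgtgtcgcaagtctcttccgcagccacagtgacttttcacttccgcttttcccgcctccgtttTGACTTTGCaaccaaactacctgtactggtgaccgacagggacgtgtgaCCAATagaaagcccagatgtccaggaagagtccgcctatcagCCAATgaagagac
PSMD12: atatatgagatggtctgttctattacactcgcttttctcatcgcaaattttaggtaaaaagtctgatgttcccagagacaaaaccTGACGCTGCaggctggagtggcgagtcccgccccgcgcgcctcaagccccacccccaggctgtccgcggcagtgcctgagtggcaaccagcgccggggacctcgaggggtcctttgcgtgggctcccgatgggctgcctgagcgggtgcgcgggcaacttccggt

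By the brightest probe set, the members farthest from 0 lay outside both particles. With each gene's measured probe sets averaged, PSMA5 at -1.80 and PSMD12 at -1.48 lay beyond PSMF1 at -1.27. So did PSMC2, whose 3 measured probe sets were at -0.10, -1.90 and -2.79. PSMF1, an inhibitor that binds the core particle, read 2224 on the control array and 881 on the siRNA array, 39.6% of control and 2.52-fold lower. Its 4 measured probe sets were alike, with log2 ratios between -1.34 and -1.11. It and PSMC3IP were the only members changed at least 2-fold by the brightest probe set. PSMC3IP matches the symbol rule but encodes a cofactor of meiotic recombination and no proteasome subunit. It read 1186 and 497, 2.39-fold lower, with its second probe set at -1.14.

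The alternative activators, caps that open the core without ATP, went both ways. PSME1, a subunit of the cytosolic activator induced by interferon-gamma, stood highest of all members, at 3557 and 5757, a log2 ratio of 0.69 and 1.62-fold higher. PSME3, which forms the related nuclear activator, read 2523 and 1292, 51.2% of control and a log2 ratio of -0.97, with its 4 probe sets between -1.79 and -0.80. PSME4, a large single-chain activator, was at -0.25. PSME3IP1, which encodes a binding partner of the PSME3 protein, was at 0.16 by the brightest of its probe sets and the other 3 lay between -0.75 and -0.13.

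Assembly chaperones also split. PSMG1 to PSMG4 encode 2 pairs of chaperones that build the alpha ring, PSMG1 with PSMG2 and PSMG3 with PSMG4, and in each pair 1 partner was lower and the other nearly level. PSMG1 read 5582 on the control array and 3627 on the siRNA array, a log2 ratio of -0.62, and PSMG2 read 9815 and 10066, a log2 ratio of 0.04. PSMG4 read 3552 and 1955, a log2 ratio of -0.86, and PSMG3 read 3582 and 3414, a log2 ratio of -0.07. Of the chaperones of the base, PSMD10, also known as gankyrin, was higher at 7148 and 10383, a log2 ratio of 0.54, with its second probe set at 0.89. PSMD9 was at 0.27, its dimmer probe set at -0.08, and PSMD5 at -0.35.

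At 1.5-fold, 2 of 41 members were higher, PSMB3 and PSME1, where 21.7% of all measured genes were. In the lower direction it was 7 of 41, namely PSMB10, PSMD12, PSME3, PSMF1, PSMG1, PSMG4 and PSMC3IP, against the 19.5% given above. By the brightest probe set on the deposited scale, the share of members past either threshold was thus no larger than the background in either direction. At 2-fold lower this depended on the setting. With each array centred on its median, 3 of 41 members (7.32%) were at least 2-fold lower, against 10.2% of all measured genes. Without probe sets of the _x_at and _s_at types it was 4 of 28 (14.3%), namely PSMA2, PSMC2, PSMD11 and PSMF1, against 10.6%.

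Some proteasome genes gave unlike answers by different probe sets. Of 21 members with at least 2 measured probe sets, 5 had a second-brightest probe set lower than the brightest by over 1 on the log2 scale, where 9.03% of the 6192 such genes on the array did. None had one higher by that much, where 6.88% did. Such gaps were not particular to the proteasome, as genes of the complexes compared below had them too. In COPS2 of the COP9 signalosome the brightest and second probe sets were at -0.06 and -1.41. In EIF3F they were at 0.71 and -1.66, in EIF3H at 0.61 and -0.88, and in CCT8 at 0.19 and -1.08. In COPS8 the second was higher, at 0.18 against -0.61, while its dimmer probe sets were at -0.58, -0.76 and -1.08. In PSMD12 the brightest probe set (202352_s_at) was at -0.68, while the second (202353_s_at) read 5869 and 1210, a log2 ratio of -2.28. In PSMD11 the second (208776_at) read 677 and 176, a log2 ratio of -1.94 against -0.52 for the brightest. In PSMC2 the dimmer pair (201067_at and 238020_at) read 1372 and 369, and 466 and 67.4, log2 ratios of -1.90 and -2.79 against -0.10.

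The same held for a pair of core genes, where the signs opposed. In PSMA2 the dimmer probe set (201316_at) read 2591 on the control array and 1278 on the siRNA array, a log2 ratio of -1.02 against 0.29 for the brightest. In PSMA5 the dimmer probe set (230300_at) read 594 and 44.7, at least 11.8-fold lower when the signal filter is taken as the floor, against 0.14 for the brightest. Which transcripts these probe sets report was not analysed here. With each gene's measured probe sets averaged, 7 of 41 members (17.1%) in place of 2 were at least 2-fold lower, a larger share than the 7.84% of all measured genes. They were PSMA5, PSMC2, PSMD11, PSMD12, PSME3, PSMF1 and PSMC3IP.

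**Figure D5:**
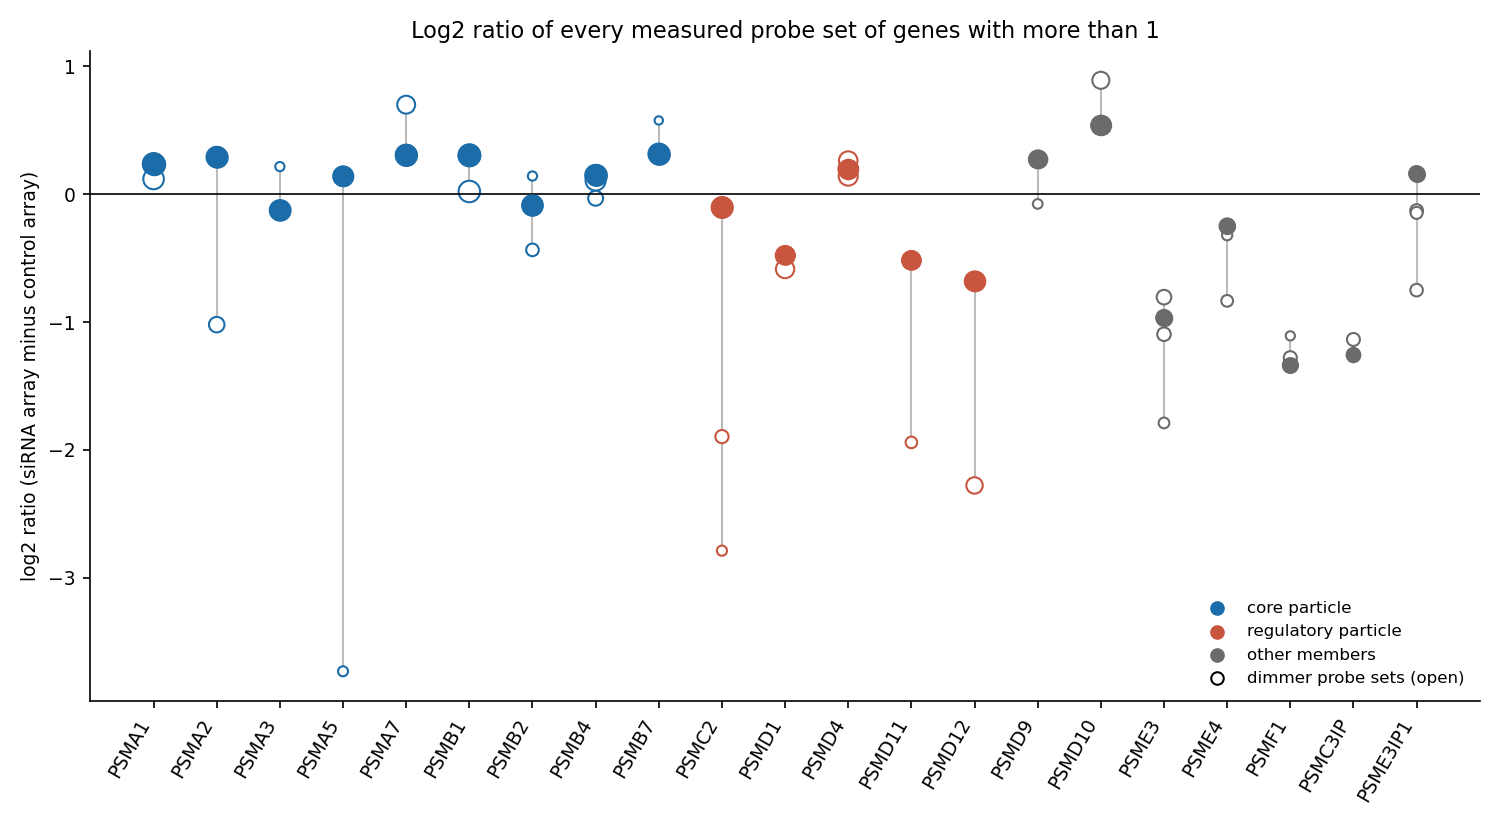
Log2 ratio (siRNA array minus control array) of every measured probe set of the 21 proteasome genes with more than 1, with the brightest filled, dimmer ones open and larger circles for brighter signal. The wide gaps of PSMA2, PSMA5, PSMC2, PSMD11 and PSMD12 all run downwards from the brightest probe set, while the 4 probe sets of PSMF1 lie together between -1.34 and -1.11.

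Proteasome partners without a PSM symbol went both ways. Of 11 measured, 5 were above 0 and 6 below, with a median of -0.42. PAAF1, a chaperone of the base, was the only one of the 11 at least 2-fold lower, at 675 and 337 or 2.004-fold. Of all measured genes 8.53% were. UBE3C stood highest of the 11 at 0.64, with its dimmer probe set at -0.97. USP14, a deubiquitinase that docks on the base, read 6582 and 3931, a log2 ratio of -0.74, with its other probe sets at -1.40 and -1.80. Its counterpart UCHL5 was at -0.53, with its other probe sets at -0.72 and -2.80. The ubiquitin receptor ADRM1, to which UCHL5 binds, was at -0.67. The small lid subunit SEM1 was at 0.07 and POMP, the maturation factor of the core, at 0.35, while its dimmer probe set, with signals of 1336 and 669, was at -0.997.

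The genes that act on proteasome transcription through NFE2L1 went both ways. Of 7 measured, 2 were higher by 2-fold or more, where 8.91% of all measured genes were, and 2 lower by as much, where 8.53% were; no test of the list was possible. NGLY1, the deglycosylating enzyme needed to activate NFE2L1, read 1966 on the control array and 8902 on the siRNA array, 4.53-fold higher, with a dim second probe set at 1.00. The small MAF partner genes opposed each other, MAFF at 2.18-fold higher and MAFG at 2.31-fold lower. NFE2L1 itself read 4050 and 2985, a log2 ratio of -0.44, with its 3 probe sets between -0.44 and -0.18, and its relative NFE2L2 was 2.08-fold lower. VCP, the ATPase that extracts NFE2L1 from the membrane, was at -0.76.

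Ubiquitin supply and delivery showed no 2-fold difference. Of 3 measured genes of ubiquitin and its activation, the ubiquitin gene UBB was highest at 0.70, where the trend with signal stood at 0.61, and the activating enzyme UBA1 was at -0.67. Of 8 measured shuttle factors and VCP cofactors the median was -0.20, with the shuttle UBQLN2 the farthest from 0 at -0.90.

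Other large complexes were set beside the regulatory particle. The COP9 signalosome, whose subunits are related to those of the lid, had a median of 0.03 over 9 genes, with COPS8 the farthest from 0 at -0.61. The second probe set of COPS8 was at 0.18 and its dimmer ones between -1.08 and -0.58. The translation factor eIF3, also related to the lid, had a median of 0.10 over 12 genes, with EIF3B 2.27-fold and EIF3J 2.02-fold lower. The CCT chaperonin, a ring complex that folds actin and tubulin, had a median of 0.12 over 7 genes, with CCT6A the farthest from 0 at -0.46. After loess these medians were -0.17, -0.16 and -0.34. That of the regulatory particle was -0.52 and that of the core particle -0.15. The lower value of the regulatory particle is a description of these arrays, since no test of the difference was possible.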

How the data were processed

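The authors deposited 1 table of linear signal intensity for 54675 probe sets on 2 arrays, and MAS5 made it, per the submitters' processing notes; its version was not given in the sources used here. With 2% of the values trimmed at either end, the mean was 500.1 on both arrays. Detection calls were not used here. Gene names came from the platform's annotation: 41091 carried 1 symbol, 1801 several and 11721 none, and no symbol changed on updating through RefSeq. A protein-coding gene with a PSM symbol was left out by the rule and is not reported here.

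Log2 was taken without a pseudocount. The brightest probe set by mean log2 signal stood for a gene. The probe-set SD of 0.53 came from the difference between the 2 brightest probe sets of 6192 genes, divided by the square root of 2. Members and lists were chosen with earlier results of these data known. Named were the highest and lowest member of each class, members changed 2-fold, catalytic subunits, members whose probe sets opposed each other, and in other lists the genes changed 2-fold (at most 4) or the one with the largest change. Other genes named in those lists were chosen after their values were seen. The alternatives were 4 scalings, a pseudocount of 16, no filter or a signal of 500, 2 other rules for probe sets, and a 1.5-fold threshold. Loess used a span of 0.3. The procedure was tested on simulated data. Tools were Python 3.11.15, numpy 2.4.6, pandas 2.3.3, statsmodels 0.14.6 and matplotlib 3.10.9.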

Additional observations from a re-analysis of the deposited data

Results flagged for a closer look

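Signals outside the gene comparison were higher on the siRNA array in a pair of cases. The hybridization controls had a median log2 ratio of 0.61, with all 18 between 0.40 and 0.71. PSMA3-AS1, an antisense transcript that the rule leaves out, read 615 on the control array and 1274 on the siRNA array by its brightest probe set (225724_at), a log2 ratio of 1.05, while its other measured probe set was at -0.11 and PSMA3 itself at -0.13.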

How the results depend on the processing

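The median of the core particle was 0.18 as reported and turned to -0.16 after quantile normalization, -0.15 after loess and -0.43 on the hybridization controls. On those controls the regulatory median was -0.999, the median of all members -0.70 in place of -0.09, and 13 members (31.7%, against 27.7% of all genes) were at least 2-fold lower. The count of 2 members at least 2-fold lower became 3 with each array centred on its median (7.32%, against 10.2% of all genes), 7 with probe sets averaged (17.1% against 7.84%), 4 of the 28 left without _x_at and _s_at probe sets (14.3% against 10.6%) and 7 at 1.5-fold (against 19.5%). The count of 0 at least 2-fold higher became 1 without a signal filter (PSMA8, dim on both arrays, against 16.1% of all genes) and 2 at 1.5-fold (against 21.7%). The difference between the core and regulatory medians stayed above 0 under each alternative, between 0.33 and 0.60. Several of these could not change it. Centring on the median and levelling on the controls shift both particles alike, and the signal filter of 500 left out none of these genes. The difference was 0.33 after quantile normalization and 0.37 after loess. It was 0.48 with probe sets averaged and 0.51 without _x_at and _s_at probe sets. Of 217 values of named members under the alternatives, 188 moved by less than the probe-set SD. PSMF1 and PSMC3IP, the members changed 2-fold, kept their sign. Members nearer 0 did not all do so. After loess PSMA2, PSMA7, PSMB7 and PSMD4 went from above 0 to -0.03, -0.07, -0.03 and -0.02. PSMA5 went from 0.14 to -1.80 with probe sets averaged. On the hybridization controls every ratio moved by 0.61, which is more than that SD. The settings that leave out a replicate were not run because each group had 1 array. No paired analysis was possible because each group had 1 array.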

Other observations

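Further probe sets of the family stood outside the rule because they carry several symbols, so their signal was assigned to no gene. There were 5 of them, all measured, with log2 ratios between -0.51 and 0.39 and a median of -0.11. Of 10 probe sets for antisense and divergent transcripts next to proteasome genes, 4 were measured, with log2 ratios between -0.11 and 1.05.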
